A study of Mus musculus with 6 samples.

Results

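The 10 genes described here belong to 3 families that handle long-chain fatty acids and were compared between mouse dendritic cells of 2 Hif2a genotypes: the fatty acid binding protein genes Fabp3, Fabp4 and Fabp5, the fatty acid transport protein genes Slc27a1, Slc27a3 and Slc27a4, and the acyl-CoA synthetase genes Acsl1, Acsl3, Acsl4 and Acsl5. They were chosen by name, as the rows of the count table with those symbols, and are 10 of its 30587 rows and 10 of the 13249 rows with enough reads for a test. RNA was sequenced from dendritic cells that had been grown from C57BL/6 bone marrow, in 3 libraries of each of 2 genotypes. The control group, WT, had Hif2afl/fl alleles and no Cre. The other group, KO, had the same floxed alleles and CD11c-Cre, a recombinase under the promoter of Itgax, the gene for the dendritic cell integrin CD11c. Cultures of both genotypes had first been kept for 24 h in dimethyloxalylglycine (DMOG), an inhibitor of the oxygen-dependent hydroxylases that lead to breakdown of HIF α subunits, and then for 4 h with the glycolipid α-GalCer. The labels give no group with Cre alone and no untreated group, so deletion and Cre cannot be told apart, and every level is one under both agents. Nor do they tie a library to its own mouse or culture, and each p-value here therefore covers only library-to-library spread, which may be technical.

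Long-chain fatty acids reach the cell free or by hydrolysis of lipoproteins. Fatty acid transport proteins of the Slc27a family, which also carry acyl-CoA synthetase activity, favour their uptake, and the Acsl enzymes couple them to coenzyme A, a step that commits them to triglyceride, phospholipid or oxidation. The small cytosolic fatty acid binding proteins keep them soluble and pass them between membranes, enzymes and nuclear receptors, and Fabp4 and Fabp5 are the forms best known in macrophages and dendritic cells.

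The genes called different between KO and WT were binding protein and transport protein genes, and no Acsl gene was called. Whether the families differed from each other was not tested. Fabp3, Slc27a1 and Slc27a3 rose in KO, by 1.58, 1.26 and 1.66-fold, and Fabp4 and Fabp5 fell, by 1.56 and 1.17-fold. Slc27a4, Acsl1, Acsl3, Acsl4 and Acsl5 did not pass the test. Of the 10 genes, 3 were thus called higher and 2 lower, at an adjusted p under 0.05 (edgeR quasi-likelihood test, Benjamini-Hochberg adjustment over all rows tested). Of all rows tested, 13.8% were called higher and 12.0% lower, 25.8% together. Library values of the genotypes did not overlap for the same 5 genes, and for 40.4% of all rows tested. The median log2 fold change of the 10 genes was 0.05, against -0.0093 over all tested rows. The genes were picked with results of these data known, so their counts are a description.

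**Figure D1:**
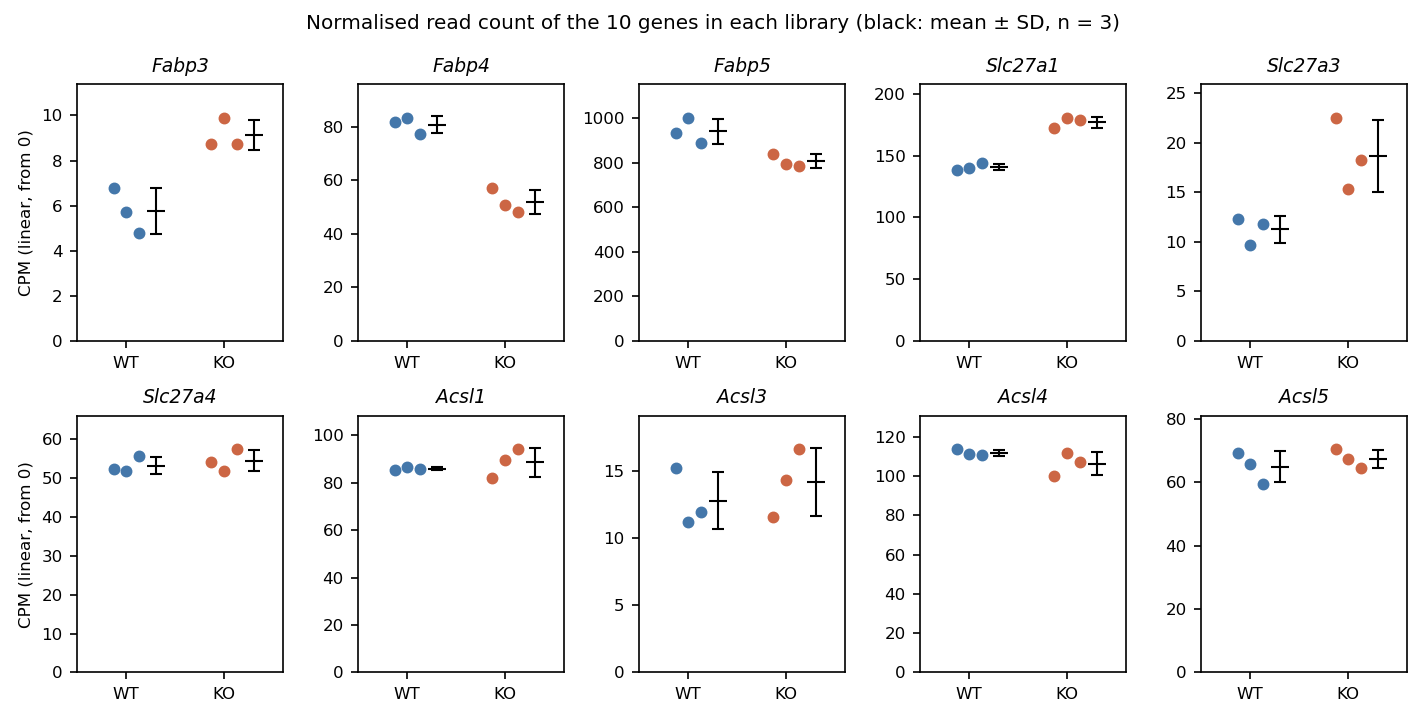
Normalised read count (CPM, linear axes from 0) of each of the 10 genes in the 3 WT and 3 KO libraries (points, replicates 1 to 3 from left to right), with the mean ± SD beside them. The KO points lie above all WT points for Fabp3, Slc27a1 and Slc27a3 and below them for Fabp4 and Fabp5; in the other 5 genes the groups overlap.

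Total counts ran from 14668641 to 17884160 per library, of which the 10 genes held 0.139% to 0.152%. WT 2 and KO 1 had a read in more rows (25408 and 22275) than the other libraries (18763 to 19513). Epas1, the gene for HIF-2α, checks the labels: its reads numbered 339, 352 and 349 across WT 1 to 3, against 175, 214 and 198 across KO 1 to 3. Every KO library was below every WT library, at a log2 fold change of -0.98 ± 0.12 (SE; edgeR adjusted p = 3.45e-05). Counts per gene also take in exons outside the deleted part, so they do not measure the share of recombined cells. Dendritic cell markers were present, with all 12 genes of the list tested and summed levels of 6300 to 6460 CPM in WT and 5850 to 6540 CPM in KO. Of these 5 were called higher (Flt3, Zbtb46, Xcr1, Irf8 and Ccr7) and 4 lower (Cd74, H2-Ab1, Ciita and Irf4). Over all tested rows the shares were 13.8% higher and 12.0% lower. Macrophage markers were present too, at 3480 to 3710 CPM in WT and 3660 to 4200 CPM in KO. Of these 11 genes, 6 were called higher and 0 lower. Most of the sum was Csf1r and Cd68 (1446 and 1453 CPM in WT), which did not pass. Fcgr1 rose from 21.1 to 164 CPM (log2 fold change 2.96) and Siglec1 from 11.9 to 93.5 CPM (2.97). Both were named after their values were seen. In such mixed RNA, fewer cells of a type and less RNA per cell cannot be told apart.

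Among the binding proteins, Fabp4 (ENSMUSG00000062515.3; chromosome 3, 10204088 to 10208576, minus strand, mm10), also called aP2 and known from adipocytes and macrophages, had the largest fall. Its normalised count was 81.9, 83.4 and 77.5 CPM in WT 1, 2 and 3, and 57.1, 50.7 and 48.1 CPM in KO 1, 2 and 3. The lowest WT library was well above the highest KO library. The means were 80.9 ± 3.09 and 51.9 ± 4.62 CPM (SD, n = 3 each), a log2 fold change of -0.64 ± 0.07 (SE; edgeR adjusted p = 1.87e-05). Across the 15 alternatives that kept the low-count filter, the log2 fold change of Fabp4 ran from -0.71 to -0.59, and it passed in each.

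Fabp5 (ENSMUSG00000027533.10; chromosome 3, 10012548 to 10016607, plus strand), the epidermal form, had by far the most reads of the 10 genes. It had 932, 1002 and 889 CPM in WT 1, 2 and 3 and 842, 797 and 784 CPM in KO 1, 2 and 3. The groups did not overlap, though WT 3 and KO 1 lay close together. The means of 941 ± 56.8 and 807 ± 30.4 CPM (SD, n = 3 each) gave a log2 fold change of -0.22 ± 0.06 (SE; edgeR adjusted p = 0.0155). This call was lost without WT 1 (-0.22, edgeR adjusted p = 0.0593), without WT 2 (-0.17, edgeR adjusted p = 0.064) or without KO 3 (-0.20, edgeR adjusted p = 0.105), with adjusted p between 0.00414 and 0.105 across the alternatives that kept the low-count filter. Reads of Fabp5 could be split with the rows Gm6166 and Gm14328, whose transcripts are 98.3% and 97.3% identical to it over 409 and 408 bases. Those rows held 1262 and 181 reads in all libraries together against 86591 for Fabp5, and with them added the log2 fold change was -0.22.

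Fabp3 (ENSMUSG00000028773.8; chromosome 4, 130308595 to 130315463, plus strand), the heart and muscle form, moved the other way at a far lower level. WT 1, 2 and 3 held 115, 88 and 70 Fabp3 reads, and KO 1, 2 and 3 held 159, 167 and 151. All KO libraries exceeded all WT libraries, the WT mean being 5.76 ± 1.02 CPM and the KO mean 9.12 ± 0.667 CPM (SD, n = 3 each). Its log2 fold change was 0.66 ± 0.15 (SE; edgeR adjusted p = 0.00597), between 0.55 and 0.81 over the alternatives with the low-count filter, and it passed in each of the 16. Its exons overlap those of Zcchc17, on the other strand, over 81 bases (3124 reads, log2 fold change 0.09), and the copy Fabp3-ps1 held 10 reads against 750.

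The forms therefore shifted against each other. For every 100 reads of Fabp5 there were 8.61 ± 0.248 of Fabp4 in WT and 6.43 ± 0.327 in KO (SD, n = 3 each). For every 100 reads of Fabp4 there were 7.10 ± 1.10 of Fabp3 in WT and 17.7 ± 2.17 in KO (SD, n = 3 each). The ratio of Fabp3 to Fabp4 was 8.30, 6.83 and 6.16 per 100 across WT 1 to 3, against 15.3, 19.5 and 18.2 across KO 1 to 3. Its lack of overlap follows from the opposite, non-overlapping values of the genes themselves and adds no further support. Of the other binding protein genes, Fabp7, the brain form, was the only one with enough reads for a test, with WT at 4.53 CPM, KO at 5.34 CPM (log2 fold change 0.24 ± 0.16, edgeR adjusted p = 0.316). Fabp1, Fabp6 and Fabp12 had at most 2 reads in a library, and no row carried the symbols Fabp2, Fabp9 or Pmp2.

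Markers of other cell types were read from 7 further lists. Of the adipocyte markers, Adipoq reached 2 reads in WT 2 and at most 1 elsewhere, and Plin1 reached 2 in WT 1 and was at 0 in every KO library. The adipocyte list summed to 22.9 to 24.3 CPM in WT and 30.5 to 36.9 CPM in KO, nearly all of it Lipe (23.3 and 33.8 CPM), a lipase gene that dendritic cells and macrophages can also express, and 1 of its 9 genes, Cfd, had no row. The muscle list summed to 4.14 to 6.34 CPM in WT and 4.20 to 5.43 CPM in KO. Nearly all of it was Myh7, Tnnc1 and Tnni3 (14 to 42 reads in a library), of which 0 of 3 were called, and Acta1, Actn2, Ckm, Mb and Myh6 had at most 4 reads in a library. Endothelial markers summed to 321 to 400 CPM in WT and 182 to 235 CPM in KO, most of it Vwf, which fell from 336 to 170.0 CPM. Kdr, the VEGF receptor gene of the same list, rose from 11.8 to 32.8 CPM (log2 fold change 1.47, edgeR adjusted p = 1.65e-07), and Pecam1, at 8.91 and 10.9 CPM, did not pass. Cdh5, Tek, Tie1 and Emcn had at most 11 reads in a library, and Cldn5 had no row. Mast cell and basophil markers, by contrast, summed to 50.2 to 57.5 CPM in WT and 81.9 to 89.0 CPM in KO. Of 5 tested genes, 4 were called higher, where 13.8% of all tested rows were. Named after their values were seen, these were Mcpt8 (log2 fold change 2.02), Prss34 (1.02), Gata2 (0.89) and Kit (0.60). Most of the sum was Kit (48.8 CPM in WT and 73.9 CPM in KO). Cpa3, Mcpt8, Fcer1a and Ms4a2 had at most 22 reads in a library. Neutrophil markers ran from 34.7 to 49.0 CPM in WT and 41.9 to 61.5 CPM in KO. Of 5 tested, 2 were higher (13.8% of all tested rows). Stromal markers ran from 2.25 to 6.68 CPM in WT and 1.36 to 1.80 CPM in KO, and lymphocyte markers, of which Ncr1 had no row, from 1.66 to 2.59 CPM and 1.26 to 2.72 CPM. The part of the macrophage, adipocyte list, muscle, endothelial, mast cell, neutrophil, stromal and lymphocyte signal in the values of the 10 genes was not tested.

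Among the transport proteins, Slc27a1 (FATP1; ENSMUSG00000031808.7; chromosome 8, 71568882 to 71587302, plus strand), which is known from muscle and fat, was the most abundant. It had 138, 140.0 and 144 CPM in WT 1, 2 and 3 and 172, 180.4 and 179 CPM in KO 1, 2 and 3. Libraries of each genotype lay close together and the groups were well apart. The means of 141 ± 2.81 and 177 ± 4.42 CPM (SD, n = 3 each) gave a log2 fold change of 0.33 ± 0.06 (SE; edgeR adjusted p = 0.000822). It passed in all 15 alternatives with the low-count filter, at 0.23 to 0.36. A stretch of 167 bases of its transcript is 95.2% identical to Slc3a2, a row with 54944 reads in all libraries together against 15875 for Slc27a1. Slc3a2 was higher in KO as well (log2 fold change 0.25, edgeR adjusted p = 0.00617), and its part in the Slc27a1 counts was not tested.

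Slc27a3 (FATP3; ENSMUSG00000027932.14; chromosome 3, 90385239 to 90389938, minus strand), which acts mainly as an acyl-CoA synthetase, showed the largest rise of the 10 genes. Reads of Slc27a3 numbered 208, 150 and 173 across WT 1 to 3, and 411, 259 and 315 across KO 1 to 3, with no overlap. The KO libraries differed among themselves more than the WT libraries did, and KO 1 was the highest. The mean went from 11.3 ± 1.37 to 18.7 ± 3.62 CPM (SD, n = 3 each), at a log2 fold change of 0.73 ± 0.14 (SE; edgeR adjusted p = 0.00195). Without WT 2 and KO 1, its lowest and its highest library, the log2 fold change was 0.48 and still passed (edgeR adjusted p = 0.0158, the highest of the alternatives with the low-count filter, where the lowest was 3.51e-05).

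Slc27a4 (FATP4; ENSMUSG00000059316.2; chromosome 2, 29802634 to 29817522, plus strand), a widely expressed long-chain acyl-CoA synthetase of the endoplasmic reticulum, did not pass the test. It had 52.3, 51.7 and 55.6 CPM in WT 1, 2 and 3 and 54.2, 51.9 and 57.4 CPM in KO 1, 2 and 3. The groups overlapped, and the log2 fold change was 0.04, with a 95% interval of -0.10 to 0.17 (edgeR adjusted p = 0.737). Of the other Slc27a genes, only Slc27a6 had enough reads for a test, where WT held 69, 56 and 75 of them and KO 39, 51 and 43. It fell, at a log2 fold change of -0.74 ± 0.21 (SE; edgeR adjusted p = 0.0179). The call for Slc27a6 was lost without WT 3 (-0.59), KO 1 (-0.63) or KO 3 (-0.73). Slc27a2 and Slc27a5, known from liver and kidney, had at most 3 reads in a library.

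**Figure D2:**
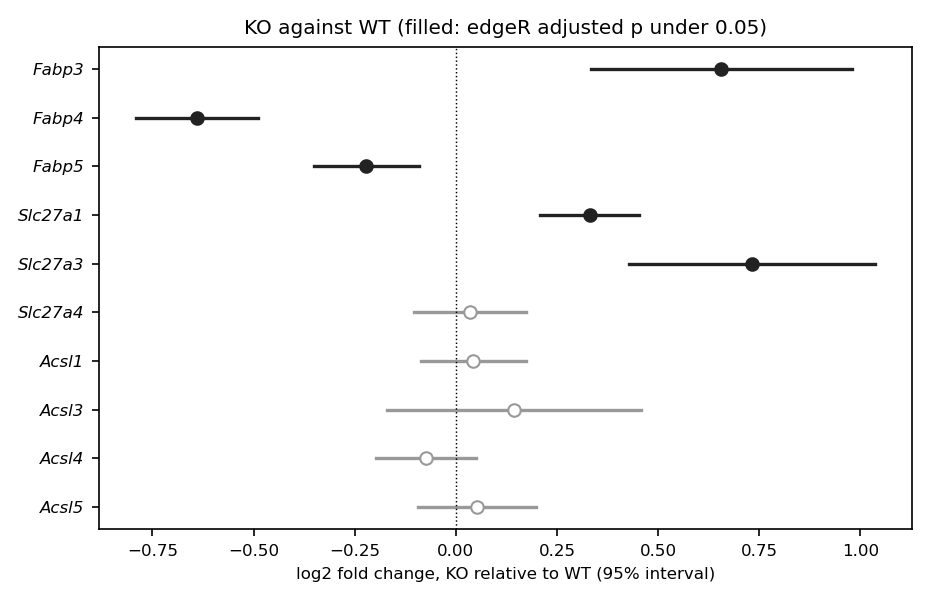
Log2 fold change, KO relative to WT (x axis), of the 10 genes (y axis) with its 95% interval from the fit (line); filled points passed at an edgeR adjusted p under 0.05. The 5 open points, Slc27a4 and the 4 Acsl genes, have intervals that include 0 and lie between -0.20 and 0.46.

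Sequences around start sites of the genes that rose are printed here as a description. HIF proteins, with their partner ARNT, bind DNA at a short core, ACGTG or GCGTG. The Cre of the KO group targets the gene of 1 such protein. Whether the core has a part in the changes was not tested. The RefSeq promoter table (GRCm38.p6) held 8 of the 10 genes, in 11 windows of 250 bases before and 50 bases after a start site; Fabp4 and Fabp5 were not among them. The core was searched for on both strands and is in capitals below, written as on the gene's strand, so that a match on the other strand reads CACGT or CACGC. The windows are chr3:90389889-90390188 (minus strand) for Slc27a3, chr8:71570344-71570643 (plus strand) for the third of 3 Slc27a1 start sites, and chr4:130308488-130308787 (plus strand) for Fabp3. The Slc27a1 window lies inside the gene and is printed as the only 1 of its 3 with the core.
Slc27a3: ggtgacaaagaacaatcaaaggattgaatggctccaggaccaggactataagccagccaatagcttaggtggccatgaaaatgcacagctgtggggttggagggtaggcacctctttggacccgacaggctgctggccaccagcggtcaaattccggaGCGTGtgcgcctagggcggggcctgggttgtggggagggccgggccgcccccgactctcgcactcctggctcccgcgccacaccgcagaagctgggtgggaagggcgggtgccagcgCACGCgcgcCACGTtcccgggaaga
Slc27a1: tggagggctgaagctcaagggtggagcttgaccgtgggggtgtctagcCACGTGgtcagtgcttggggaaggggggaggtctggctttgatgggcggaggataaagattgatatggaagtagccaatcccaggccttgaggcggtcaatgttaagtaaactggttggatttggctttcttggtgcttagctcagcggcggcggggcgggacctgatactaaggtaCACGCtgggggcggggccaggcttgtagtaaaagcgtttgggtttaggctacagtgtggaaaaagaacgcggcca
Fabp3: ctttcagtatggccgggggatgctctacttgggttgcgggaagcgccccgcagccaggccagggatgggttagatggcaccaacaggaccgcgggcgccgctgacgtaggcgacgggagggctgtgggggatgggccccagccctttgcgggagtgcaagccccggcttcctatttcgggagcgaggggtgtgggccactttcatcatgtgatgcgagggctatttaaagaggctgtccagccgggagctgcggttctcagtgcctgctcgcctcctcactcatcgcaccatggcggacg
The Slc27a3 window held the core 3 times. In the third window of Slc27a1 it also matched 3 times, of which 2 overlap in the palindrome CACGTG. Neither the first 2 Slc27a1 windows nor those of Fabp3 and Slc27a4 held it. The core was present once or more in 6 of the 11 windows of the 10 genes. Among these were the windows of Acsl3, Acsl4 and Acsl5 and, with 3 matches, 1 of the 2 of Acsl1. Those 4 genes did not pass the test. Of all 32851 windows of that length, 43.8% held the core. A match is a description of letters and not a site of binding.

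None of the 4 acyl-CoA synthetase genes passed the test, where 25.8% of all tested rows did. Acsl4 (ENSMUSG00000031278.12; chromosome X, 142317993 to 142390535, minus strand), which prefers arachidonic acid and other polyunsaturated fatty acids, had 113, 111 and 111 CPM in WT 1, 2 and 3 and 99.9, 112 and 107 CPM in KO 1, 2 and 3. The groups overlapped, with KO 2 inside the WT range and the other KO libraries below it, and the log2 fold change was -0.07, with a 95% interval of -0.20 to 0.05 (edgeR adjusted p = 0.381). Acsl1 (ENSMUSG00000018796.13; chromosome 8, 46471037 to 46536051, plus strand), the main form in fat, heart and activated macrophages, stood at 85.5, 86.6 and 86.1 CPM across WT and at 82.1, 89.7 and 94.1 CPM across KO. The WT libraries were close together and lay inside the range of the KO libraries. The log2 fold change of Acsl1 was 0.04, with a 95% interval of -0.09 to 0.17 (edgeR adjusted p = 0.655).

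Acsl5 (ENSMUSG00000024981.6; chromosome 19, 55251938 to 55297720, plus strand), found at mitochondria and the endoplasmic reticulum, had 69.1, 65.8 and 59.5 CPM in WT 1, 2 and 3 and 70.3, 67.2 and 64.4 CPM in KO 1, 2 and 3, and the groups overlapped. The log2 fold change of Acsl5 was 0.05, with a 95% interval of -0.09 to 0.20 (edgeR adjusted p = 0.614). Acsl5 overlaps the exons of Zdhhc6 on the other strand over 404 bases (4901 reads, log2 fold change 0.12), so part of its reads may belong there. Acsl3 (ENSMUSG00000032883.15; chromosome 1, 78657825 to 78707743, plus strand), which acts at lipid droplets, was the least abundant, its reads being 258, 173 and 176 across WT and 212, 243 and 287 across KO. Libraries scattered more for Acsl3 than for the other Acsl genes, and the log2 fold change of 0.14 had a 95% interval of -0.17 to 0.46 (edgeR adjusted p = 0.518). Acsl3 shares 244 exon bases with Utp14b on the same strand, and the sum of both rows gave a log2 fold change of 0.22 (edgeR adjusted p = 0.16, the lowest of the alternatives with the low-count filter, where the highest was 0.962). A p over the threshold does not show that a gene was equal in both genotypes. For Acsl1, Acsl4 and Acsl5 the intervals leave room for a log2 change of at most 0.20 in either direction, for Acsl3 of 0.46.

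Of the remaining synthetase genes of these families, Acsbg1, of the bubblegum type known from brain, was counted 53, 38 and 54 times across WT and 63, 98 and 76 times across KO (log2 fold change 0.56 ± 0.22, edgeR adjusted p = 0.0859). Acsl6 had 1 read in 1 KO library and Acsbg2 1 read in WT 2.

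Levels of different genes can be set beside each other only per length. CPM was divided by the length in kb of the longest protein-coding transcript, and also by the union of all annotated exons, which for Fabp4 and Fabp5 includes retained introns (4489 and 3567 bases against 896 and 987). Per coding transcript, Fabp5 stood at 953 ± 57.6 CPM per kb in WT and 818 ± 30.8 in KO (SD, n = 3 each), 52nd and 57th of 11703 tested genes with such a length. Next in WT came Fabp4 at 90.3 ± 3.44, then Slc27a1 at 50.3 ± 1.01 (CPM per kb, SD, n = 3 each). In KO their order was exchanged, at 58.0 ± 5.16 for Fabp4 and 63.3 ± 1.58 for Slc27a1, and their library ranges overlapped. By this length Acsl1, Acsl4, Acsl5 and Slc27a4 followed in both genotypes, from 22.1 down to 13.1 CPM per kb in WT, and the KO ranges of Acsl1 and Acsl4 overlapped. The lowest were Fabp3 (6.996 in WT, 11.1 in KO), Slc27a3 (4.99 and 8.28) and Acsl3 (3.25 and 3.60). Per exon union, Fabp4 was at 18.0 CPM per kb in WT, below Slc27a1 (24.1) and Acsl4 (20.7), and Fabp5 at 264, still the highest. Acsl1 was there at 8.21, below Acsl4, Acsl5 (13.3) and Slc27a4 (12.1), so the rank of Acsl1 depends on the length used.

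**Figure D3:**
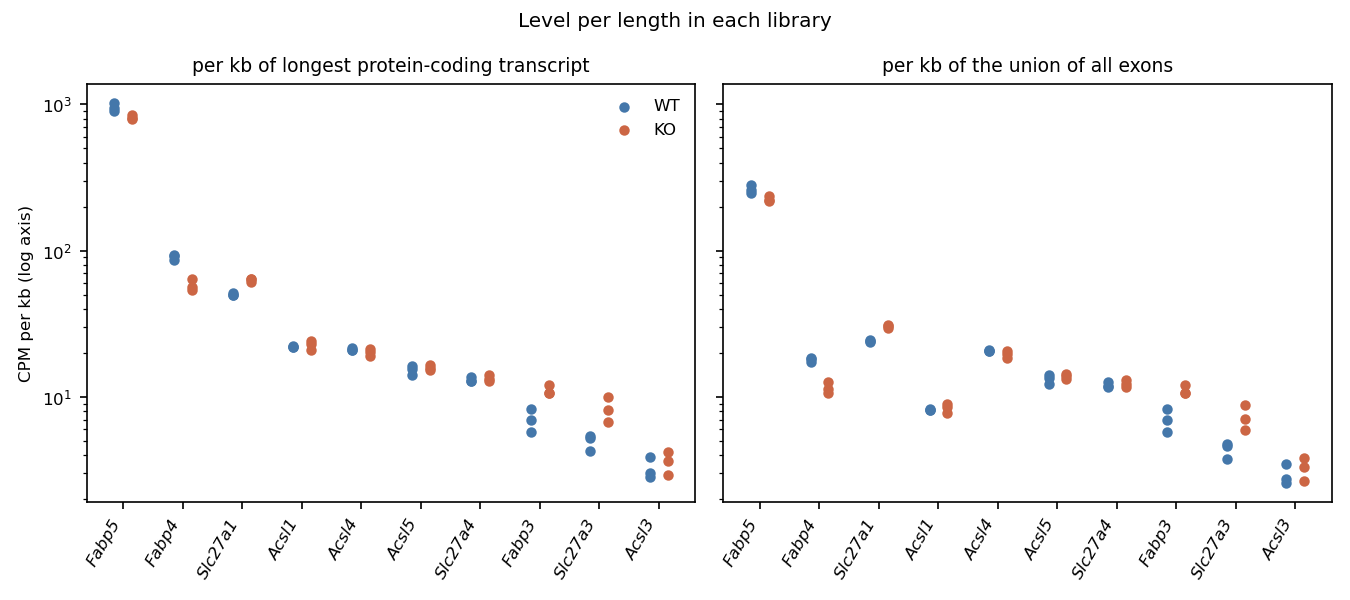
Level per length (CPM per kb, log axis) of each gene in every WT and KO library (points), by longest protein-coding transcript (left) and by exon union (right). Fabp5 is the highest in both panels, while Fabp4 lies above Slc27a1 in WT only on the left, at 90.3 against 50.3 CPM per kb.

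Summed by family per coding transcript, the 3 binding protein genes gave 1051 ± 61.2 CPM per kb in WT and 887 ± 35.7 in KO (SD, n = 3 each), with no overlap between genotypes. Most of this was Fabp5, which held 90.7 ± 0.289% of the family sum in WT and 92.2 ± 0.265% in KO (SD, n = 3 each). With exon union lengths its share was 91.3 ± 0.475% and 90.9 ± 0.311%, so the direction of that share depends on the length used. The share of Fabp4 was lower in KO with either length, 8.60 ± 0.222% against 6.53 ± 0.315% per coding transcript (SD, n = 3 each). The 3 transport protein genes summed to 68.5 ± 1.72 CPM per kb in WT and 85.1 ± 1.02 in KO, again with no overlap (SD, n = 3 each). Most of this was Slc27a1, with 73.5 ± 0.907% of the sum in WT and 74.5 ± 2.12% in KO (SD, n = 3 each). The share of Slc27a4 went from 19.2 ± 0.282% in WT to 15.8 ± 0.606% in KO (SD, n = 3 each). The level of Slc27a4 itself was 13.1 CPM per kb in WT and 13.4 in KO, so its share fell as the sum rose. The 4 synthetase genes summed to 61.8 ± 1.74 CPM per kb in WT and 62.3 ± 2.46 in KO, with overlapping libraries (SD, n = 3 each). The sums are descriptions and were not tested.

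The genes that act before and after these steps were read from 8 lists, on which some genes stand more than once. Among uptake partners, 4 of 13 tested genes were lower and 1 higher, with a median log2 fold change of -0.07 (all tested rows: 12.0% lower, 13.8% higher, median -0.0093). Lpl, the lipoprotein lipase that frees fatty acids from triglyceride, fell from 2347 ± 128 to 1521 ± 284 CPM (SD, n = 3 each; log2 fold change -0.63 ± 0.10, edgeR adjusted p = 0.000447). Vldlr, its partner receptor for lipoproteins, was counted 89, 78 and 98 times across WT and 39, 18 and 20 times across KO (log2 fold change -1.94 ± 0.25, edgeR adjusted p = 7.92e-05). Scarb1, a receptor for high-density lipoprotein, also fell (-0.41 ± 0.07), as did the lysosomal lipase gene Lipa (-0.33 ± 0.07), while the scavenger receptor gene Msr1 rose (0.25 ± 0.07); both of the last were named after their values were seen. Cd36, the fatty acid receptor named in the study's title, was counted 10089, 9366 and 8746 times across WT and 11135, 13218 and 11254 times across KO, and its log2 fold change of 0.18 ± 0.08 did not pass (edgeR adjusted p = 0.11). Cd36 did pass with the GC and length offset (0.26), with no low-count filter (0.20), when KO 1 was left out (0.26) and when both WT 2 and KO 1 were (0.27).

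Other activating enzymes had 1 gene higher and 0 lower of 5 tested, with a median of 0.10. That is 20% called, against 25.8% of all tested rows. The gene called was Acsf2, a mitochondrial acyl-CoA synthetase known from ferroptosis screens. Acsf2 was counted 153, 144 and 115 times across WT and 409, 361 and 362 times across KO, and the groups lay far apart. The rise from 8.74 ± 0.788 to 21.6 ± 0.739 CPM (SD, n = 3 each) was 2.47-fold (log2 fold change 1.30 ± 0.10, edgeR adjusted p = 6.76e-07). Of 15 acyl-CoA binding and thioesterase genes, 2 were lower and 0 higher, with a median of -0.04. At 13.3% called, this list was below the share of all tested rows. The 2 were Acbd5, a peroxisomal acyl-CoA binding protein (-0.32 ± 0.07), and the thioesterase gene Acot13 (-0.37 ± 0.09). Acot13 did not pass with the GC and length offset (-0.23). Dbi, the acyl-CoA binding protein itself, stood at 83.1 CPM in WT against 87.3 CPM in KO (edgeR adjusted p = 0.56).

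The list of fatty acid sensors also held sterol receptor and coactivator genes. Of its 11 tested genes, 3 were higher and 2 lower (45.5% called, against 25.8% of all tested rows), with a median of 0.09. Ppard, for PPARδ, to which Fabp5 is known to deliver ligand, fell from 80.4 ± 3.24 to 53.4 ± 4.60 CPM (SD, n = 3 each; log2 fold change -0.59 ± 0.07, edgeR adjusted p = 3.80e-05). Pparg, for PPARγ, the known partner of Fabp4, did not pass, at 26.6 CPM in WT against 31.6 CPM in KO (0.24 ± 0.11, edgeR adjusted p = 0.112). Nr1h3, for the sterol receptor LXRα, rose (0.49 ± 0.08). Ffar4, a surface receptor for long-chain fatty acids, was counted 53, 64 and 57 times across WT and 38, 34 and 47 times across KO (-0.71 ± 0.21, edgeR adjusted p = 0.0244), and was not called in 5 of 16 alternatives, those without WT 2 (-0.62), WT 3 (-0.66), KO 1 (-0.64), KO 2 (-0.63) or both WT 2 and KO 1 (-0.56). The other genes called higher, named after their values were seen, were Ffar2 (1.30 ± 0.44) and Gpr84 (0.31 ± 0.09), receptors for short-chain and medium-chain fatty acids. Ffar2 had few reads, 5, 4 and 9 across WT and 14, 15 and 21 across KO (edgeR adjusted p = 0.0466). Of 10 tested PPAR target genes outside the families, 3 were higher and 2 lower (50% called), with a median of 0.17. Plin2, the lipid droplet coat gene (0.48 ± 0.05), Ucp2 (0.39 ± 0.06) and Slc25a20 rose, and Lpl and Acadm (-0.16 ± 0.06) fell; Acadm was named after its values were seen.

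Past activation, a list of carnitine-linked genes, not all of them steps of the shuttle into mitochondria, was read. It had 1 gene higher and 3 lower of 8 tested (50% called, against 25.8% of all tested rows), with a median of -0.05. Slc25a20, the carnitine and acylcarnitine carrier, rose from 58.9 ± 2.58 to 81.6 ± 5.77 CPM (SD, n = 3 each; log2 fold change 0.47 ± 0.07, edgeR adjusted p = 0.000176). Crot, a peroxisomal acyltransferase (-0.40 ± 0.08), and Slc22a4, a transporter of organic cations (-0.34 ± 0.07), fell, and the third, named after its values were seen, was Cpt2 (-0.29 ± 0.09). Cpt1a, the gate of the shuttle, stood at 201 CPM in either genotype (log2 fold change -0.0047, edgeR adjusted p = 0.974). Of 21 esterification genes, 4 were higher and 2 lower, with a median of 0.12. At 28.6% called, this list was near the share of all tested rows. Dgat1, which makes triglyceride, rose from 19.0 ± 0.537 to 31.0 ± 4.32 CPM (SD, n = 3 each; log2 fold change 0.71 ± 0.10, edgeR adjusted p = 0.000238). Lpcat2, a lysophospholipid acyltransferase, rose too (0.56 ± 0.06), and Lpin1, a phosphatidate phosphatase, fell (-0.34 ± 0.06). Named after their values were seen, Dgat2 (1.03 ± 0.21) and Gpat4 (0.25 ± 0.05) were also higher and Mboat2 (-1.87 ± 0.50) lower. Mboat2 had few reads, 20, 15 and 12 across WT and 9, 2 and 3 across KO.

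**Figure D4:**
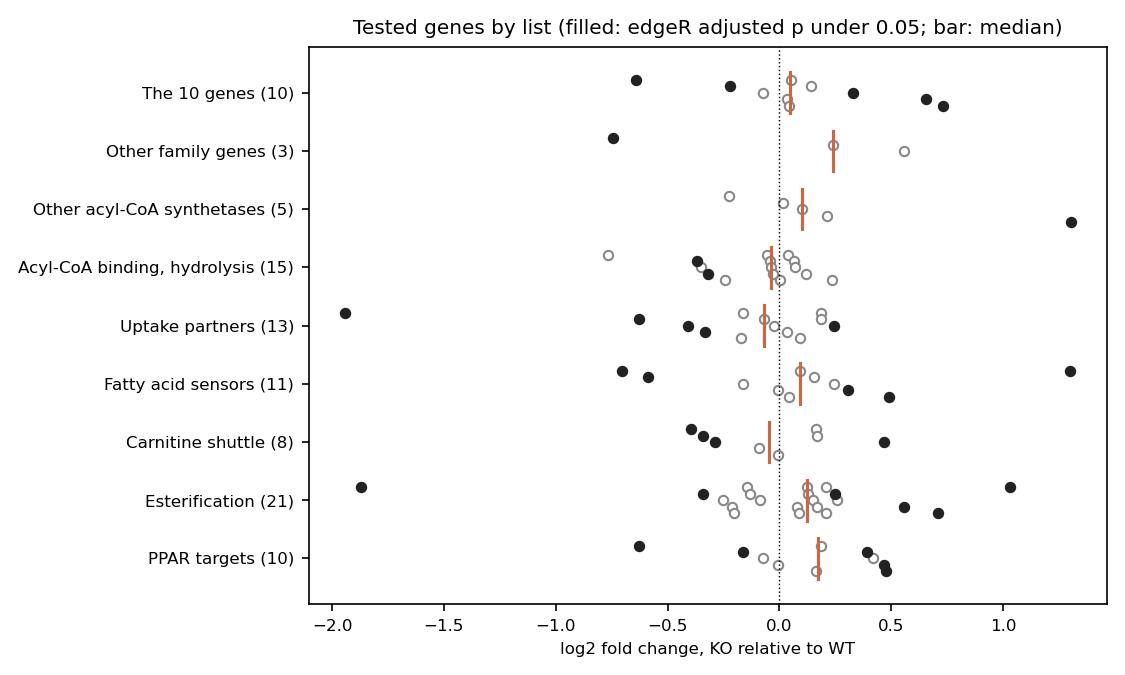
Log2 fold change, KO relative to WT (x axis), of each tested gene in the 10 genes and in the 8 lists (y axis, number tested in brackets; vertical scatter only separates points). Filled points passed at an edgeR adjusted p under 0.05 and bars are medians, which lie between -0.07 for uptake partners and 0.24 for the 3 other family genes.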

How the data were processed

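RNA of 6 libraries was measured as un-normalized counts of reads for each gene symbol, in a single table that the authors deposited. Build mm10 is named in the submitters' processing notes, as are (in no order) HTSeq, SAMtools, DESeq2, HISAT, HISAT2 and TopHat2. Which aligner made the counts, the annotation and the strand setting were not given in the sources used, so reads of overlapping genes may not have been told apart. Rows were filtered with filterByExpr (minimum count 10), scaled with TMM factors and tested with edgeR 4.0.16 (quasi-likelihood, R 4.3.3), genotype as the only term, with Benjamini-Hochberg adjustment over 13249 rows. CPM uses TMM-scaled library sizes. The SE is the log2 fold change divided by the root of F, and 95% intervals use the t distribution of the fit. Groups of 3 allow no permutation p under 0.1. Positions and lengths came from GENCODE M21 (mm10), copies from BLAST of transcripts (at least 95% identity over 150 bases). The 10 genes and all 17 lists, 8 of the pathway and 9 of markers, were chosen with earlier results of these data known. Named beside the 10 were Epas1, Cd36, the rest of the families, and up to 3 called genes per pathway list by lowest p; other genes of these lists, Dbi, Pparg and Cpt1a among them, were named after their values were seen. The alternatives were DESeq2 size factors, library size only, other low-count filters, the DESeq2 1.42.0 Wald test, limma-voom (limma 3.58.1), a robust estimate, the replicate number as a block, GC and length offsets, libraries left out, copies summed and other lengths. The procedure was tested on simulated data. Replicates differed by more than sampling noise. Chi-square per degree of freedom was 16.5 for WT 1 against WT 2, 17.6 for WT 2 against WT 3 and 4.74 for WT 1 against WT 3. In KO it was 12.2 for KO 1 against KO 2, 6.77 for KO 1 against KO 3 and 3.9 for KO 2 against KO 3.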

Additional observations from a re-analysis of the deposited data

How the results depend on the processing

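The number of the 10 genes called higher was 3 in every alternative run, and the number called lower was 2 except when a library was left out, where it ran from 1 to 2 through the loss of Fabp5. Epas1 kept its direction and passed in all 16. Over all rows, leaving out a library gave 1182 to 1992 higher and 945 to 1622 lower, against 1826 and 1586; both lowest counts were without KO 3, and without WT 1 there were 1027 lower. Of the genes that did not pass, Slc27a4 changed sign with the GC and length offset (-0.0478) and without KO 3, and ran from -0.0022 to 0.0762 as single libraries were left out; Acsl1 changed sign without KO 3, in a range of -0.0018 to 0.0973 over single libraries left out, and was at 0.1006 without WT 2 and KO 1. With the replicate number as a block, 3 of the 10 genes were higher and 2 lower, and 1741 and 1506 rows over all; the numbers are not known to pair the libraries, and deviations of same-numbered libraries correlated at 0.015, -0.11 and 0.08. Family sums moved with the length used. In CPM per kb of exon union, longest transcript and longest protein-coding transcript (the last added after seeing the annotation), they were 289, 317 and 1051 in WT and 249.0, 273 and 887 in KO for the binding proteins. For the transport proteins they were 40.6, 61.5 and 68.5 in WT and 49.98, 76.2 and 85.1 in KO, and for the synthetases 45.2, 54.9 and 61.8 in WT and 45.2, 55.2 and 62.3 in KO. Fabp3, Slc27a3 and Acsl3 had the fewest reads per library, 70 to 167, 150 to 411 and 173 to 287.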

Other observations

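Fabp5 and Fabp4 lie 187481 bases apart on chromosome 3 with Gm9833 between them, a row at 12 to 19 reads per library that did not pass, and Fabp12, with 2 reads in 1 library, lies just beyond Fabp4. Within 500000 bases of the pair, a window chosen after the values were seen, 11 protein-coding genes had a row and 9 were tested. Fabp5 and Fabp4, whose falls prompted the window, are among the 9. A count of falls there would be fixed in part, so none is given or set against all rows. Of the rest, only the neighbours on the Fabp5 side were called, both lower in KO. These were Pag1, a membrane adaptor gene (log2 fold change -0.37 ± 0.08, edgeR adjusted p = 0.00454), and the zinc finger gene Zfp704 (-0.66 ± 0.09, edgeR adjusted p = 9.97e-05). On the Fabp4 side, Impa1 (0.14 ± 0.08) and Zfand1 (-0.31 ± 0.11) did not pass (edgeR adjusted p = 0.19 and 0.0583). Zfp704 was counted 833, 782 and 882 times across WT 1 to 3 and 602, 616 and 543 times across KO 1 to 3, with no overlap.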
